A study of Homo sapiens with 4 samples.

Results

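The nuclear-encoded subunits of the respiratory chain and of ATP synthase were examined in HepG2, an established human hepatocellular carcinoma cell line, after exposure to melatonin. Members were chosen by a naming rule, with earlier results of these data known. A gene was taken if it was protein-coding, lay outside the mitochondrial genome and was named NDUFA, NDUFB, NDUFC, NDUFS or NDUFV plus a digit, UQCR, COX4 to COX8, ATP5, or SDHA to SDHD. Of 58302 genes, 89 met this rule, and 81 of them were subunits of complexes I to V (36, 5, 8, 17 and 15 genes). The other 8 were near copies, readthrough genes and related genes that carry the same name stems. The cells were wild type by their label and were kept in MEM with 10% FBS, sodium pyruvate and nonessential amino acids. They received the solvent DMSO or melatonin at 1 mM, and polyadenylated RNA was sequenced after 24 h or 48 h. Each of the 4 conditions was 1 library, so no difference below has a replicate check and no p-value is given.

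The respiratory chain carries electrons from NADH and succinate to oxygen and pumps protons across the inner mitochondrial membrane. Complex I (NADH dehydrogenase) and complex II (succinate dehydrogenase) pass electrons to coenzyme Q, complex III hands them to cytochrome c, complex IV (cytochrome c oxidase) reduces oxygen, and complex V (ATP synthase) uses the proton gradient to make ATP. Complexes I, III, IV and V hold subunits from both the nuclear and the mitochondrial genome, whereas complex II is nuclear only. Hepatocytes are rich in mitochondria and use this ATP for the synthesis of urea, glucose and plasma proteins.

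Expression was given as FPKM, fragments per kilobase of gene, scaled to a library size. The size implied by the values was 0.849 to 0.973 of the reads on genes. Multiplied by the listed gene length, every value was a whole multiple of a single step in its library (tolerance 0.01), which gave back whole reads. The libraries held 21616676 to 23086025 reads on genes, and the members took 103183 to 115663 of these, or 0.468% to 0.507%. The 95% intervals below are exact Poisson intervals of a level or exact binomial intervals of a ratio of reads, and they cover counting error only. All 9 hepatocyte markers were at an FPKM of 1 or more in every library, with a summed level of 8489 to 10745. Of 10 markers of endothelial cells, fibroblasts and leukocytes, LYZ alone reached an FPKM of 1 (729 to 1070), and COL1A2, DCN and CD3E were at 0 in all libraries. In bulk RNA, fewer cells of a kind and less RNA per cell cannot be told apart.

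Levels spanned more than 2 orders of magnitude within the chain. FPKM divides by a listed length that was a median of 2.42 times the canonical transcript (0.936 to 10.8 times over the members), so the order of genes depends on those lengths. In complex I, NDUFS5, a small accessory subunit, stood highest at FPKM 183 and 145 with DMSO and melatonin at 24 h, then 131 and 115 with DMSO and melatonin at 48 h, the order used for all values below. NDUFA7 was the lowest tested subunit of complex I in 3 of the 4 libraries at FPKM 0.617, 0.523, 0.807 and 1.24, from 15 to 39 reads, with NDUFV2 just below it in melatonin 48 h (1.23). In complex II the flavoprotein SDHA led at FPKM 28.5, 24.8, 19.6 and 20.6, and the membrane anchor SDHC was lowest at 7.44, 8.01, 6.40 and 7.30. Levels within complex I thus covered a wider range than those within complex II. In complex III the hinge protein gene UQCRH was highest in 3 of the 4 libraries (FPKM 76.5, 67.9, 79.5 and 72.5), with UQCRC1 above it in melatonin 24 h. COX8A led complex IV at FPKM 115, 115, 75.6 and 96.5, and COX7B was its lowest ubiquitous subunit at 9.53, 9.64, 8.20 and 9.31. By listed length the leading gene of complex III thus differed between libraries, and that of complex IV did not. By canonical length UQCRH led complex III in melatonin 24 h too (177.9, with UQCRC2 at 159.5 and UQCRC1 at 157). By the same measure COX4I1 (264.9 to 317) was above COX8A (77.6 to 117.8) in complex IV. In complex V the catalytic beta subunit ATP5B was the highest of all members at FPKM 238, 209, 190 and 180, and ATP5O, which encodes the stalk protein OSCP, was lowest at 4.07, 4.45, 3.76 and 4.62.

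**Figure D1:**
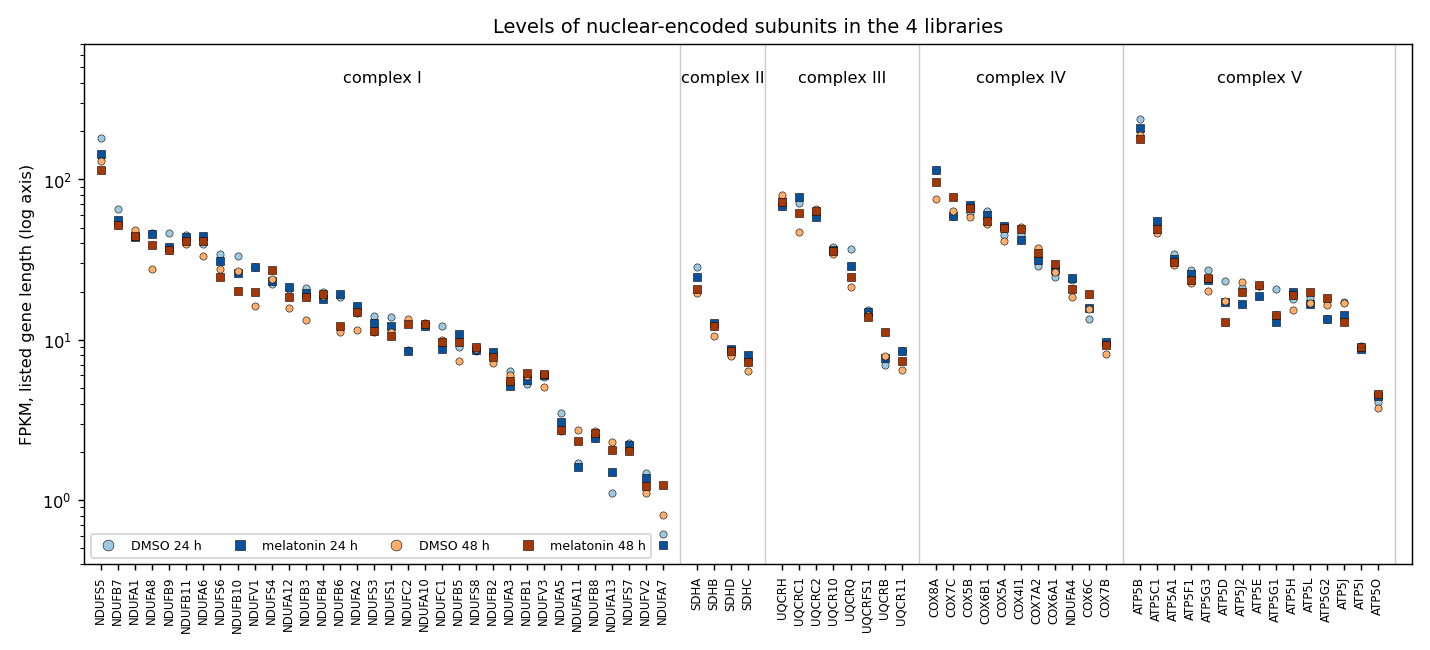
FPKM (log axis, listed gene length) of the subunits of complexes I to V that reached 1 in a library and are reported singly, with 1 point per library and genes ordered by their highest value within each complex. ATP5B at 180 to 238 and NDUFS5 at 115 to 183 stand highest, and NDUFA7 at 0.523 to 1.24 lowest.

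A change is given as log2((FPKM + 1)/(FPKM + 1)) where 1 of the 2 libraries reached an FPKM of 1 or more, and a gene was counted as risen or fallen when this passed 1.5-fold. Of the 89 members, 76 were tested in at least 1 comparison. The 13 others were COX4I2, COX6A2, COX6B2, COX7A1, COX7B2, COX8C, NDUFA4L2, ATP5L2, ATP5EP2, the readthrough genes ATP5J2-PTCD1 and NDUFC2-KCTD14, a second SDHD entry and NDUFA9. NDUFA9, an accessory subunit of complex I, had 151 to 176 reads but a listed length of 10391 bp, which put it at FPKM 0.716 to 0.813.

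With melatonin at 24 h, no member rose and 1 of 75 fell past 1.5-fold, against 4.02% of all 13582 genes tested that rose and 7.53% that fell. The member that fell was ATP5G1, a gene for the c subunit of ATP synthase. The median log2 fold change of the members was −0.04 against 0.02 for all genes, and 29 of 75 members (38.7%) were above 0 against 53.5% of all genes. Under TPM, the same values rescaled to a common sum in each library, both medians moved up, to 0.12 and 0.17. The members' changes ran from −0.64 to 0.24. Complex V had the lowest median at −0.12, with 3 of 15 genes above 0. The medians of complexes I and III were both −0.05, that of complex IV was 0.04 and that of complex II 0.07. Relative to the median of all genes, complexes I, III and V stayed lower and complex II higher under all 12 alternative settings, while complex IV moved to the median without a minimum FPKM or with protein-coding genes only.

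With melatonin at 48 h, none of 76 members passed 1.5-fold, against 8.62% of all 13805 genes that rose and 10.0% that fell. The median log2 fold change of the members was 0.07 against −0.02 for all genes, and 51 of 76 (67.1%) were above 0 against 47.5% of all genes. Changes ran from −0.41 to 0.47. All 4 tested complex II genes were above 0, with a median of 0.13. Complex IV had a median of 0.16 with 9 of 11 genes above 0, complex III 0.12 with 5 of 8, complex V 0.07 with 11 of 15 and complex I 0.03 with 20 of 35 (−0.02 under TPM). All 5 complexes stayed above the median of all genes under the 12 alternatives. Among the 9 hepatocyte markers, AFP (−1.28), TF (−0.93) and AHSG (−0.72) fell and TTR (2.31) rose past 1.5-fold in this comparison, with a list median of −0.40, whereas none passed it at 24 h. Their part in the members' values was not tested.

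By counting error alone, the interval of the ratio lay above 1 for 12 members, below 1 for 24 and held 1 for 39 at 24 h. At 48 h the numbers were 32 above, 10 below and 34 holding 1. The median distance from the middle to the end of these intervals was 0.14 on the log2 scale, so a change of about this size in a single gene was at the counting limit. The counts above cover the members only, without a share over all genes, and use the library sizes of FPKM. The members' median at 24 h was −0.04 by FPKM and 0.12 under TPM, so the division into above and below depends on the scaling.

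**Figure D2:**
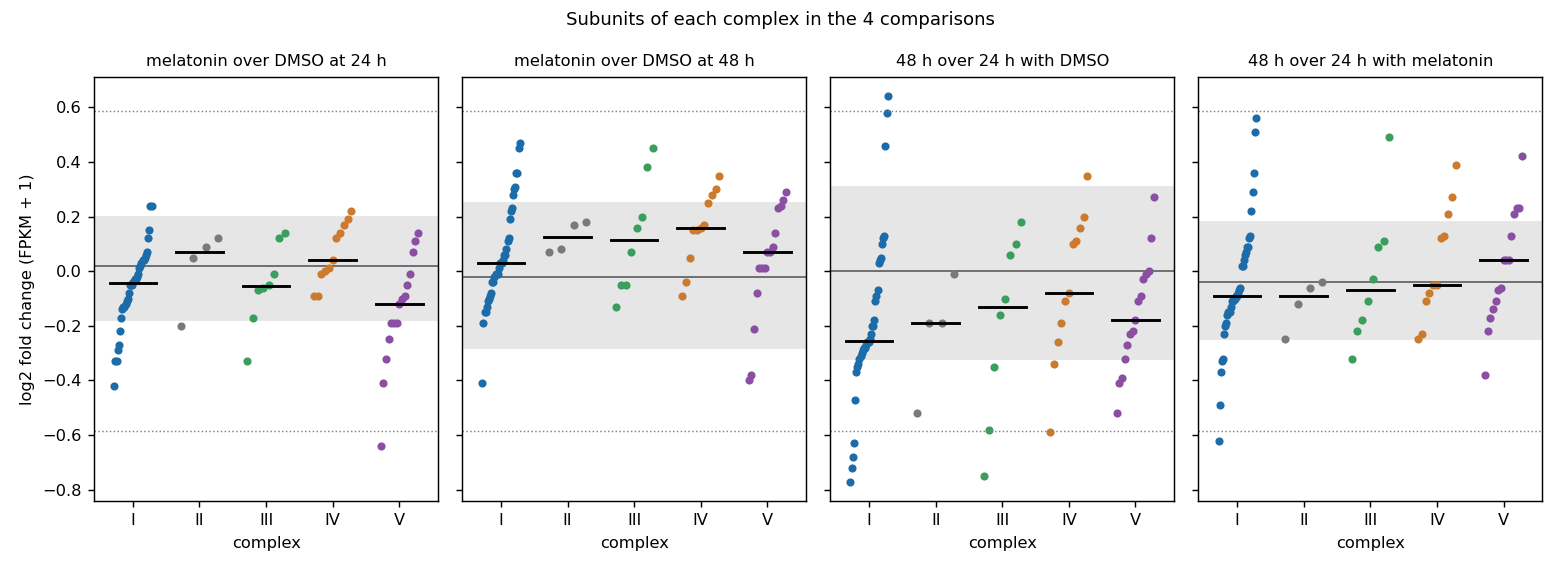
Log2 fold change (FPKM + 1) of each tested subunit by complex in the 4 comparisons, with black bars at the medians, the grey line and band at the median and interquartile range of all tested genes, and dotted lines at 1.5-fold. Complex V lies lowest at 24 h with melatonin (median −0.12, or 0.05 under TPM), all 5 medians lie above that of all genes at 48 h, and with time under DMSO the medians run from −0.25 in complex I to −0.08 in complex IV, all of which turn positive under TPM.

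The melatonin and DMSO libraries at the 2 times were separate, so the changes at 24 h and 48 h could be set side by side. The change at 48 h was above that at 24 h in 64 of 75 members (85.3%), against 47.1% of 12775 genes tested at both times. The median of the difference was 0.13 for the members and −0.02 for all genes. Rescaling to TPM lowered the difference for all genes to a median of −0.21 and left 20 of 78 members above 0, yet 64 of 78 were above the median of all genes, against 66 of 75 with FPKM. By FPKM the log2 fold change was higher at 48 h in 27 of 34 genes of complex I and 3 of 4 of complex II. The same held for 7 of 8 genes of complex III, 10 of 11 of complex IV and 14 of 15 of complex V. Under TPM these counts were 9 of 36, 1 of 4, 3 of 8, 2 of 12 and 3 of 15 for complexes I to V. Measured against the median of all genes at each time, 30 members (40.0%) were below it at 24 h and above it at 48 h, against 16.4% of all genes. The opposite course was seen in 2 members (2.67%), also against 16.4%. Another 23 members were above at both times and 20 below at both. Across the members, the 2 changes correlated with Pearson r of 0.58 and Spearman rho of 0.60 (n = 75 genes, which share the same 4 libraries), and the values over all genes were 0.42 and 0.46.

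**Figure D3:**
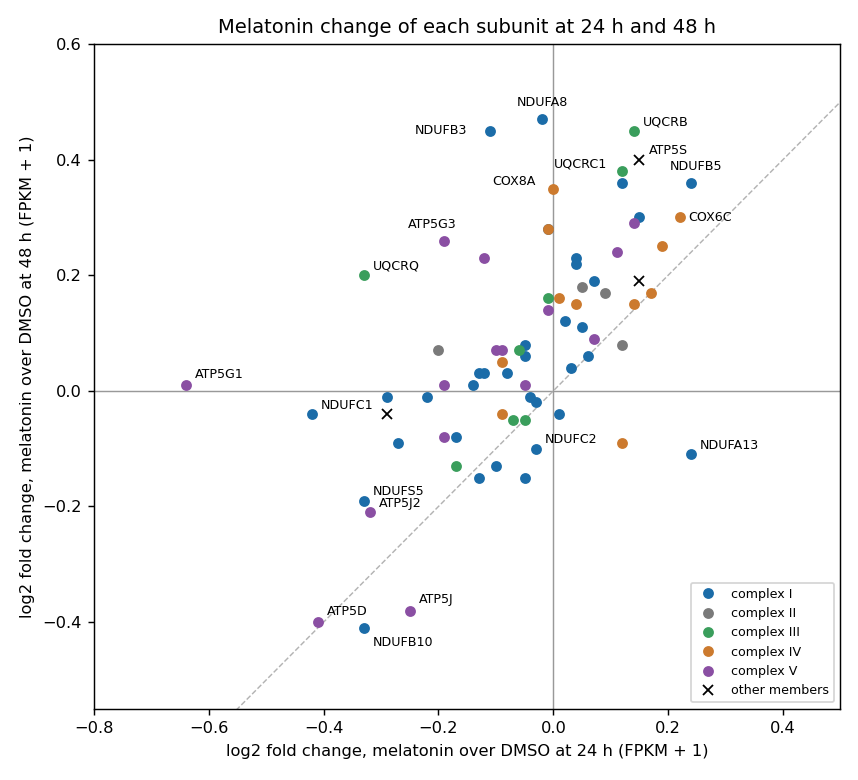
Log2 fold change of melatonin over DMSO at 24 h (x axis) and 48 h (y axis) for the 75 members tested at both times, coloured by complex, with the dashed line marking equal change. With FPKM 64 points lie above the dashed line (20 of 78 under TPM), ATP5G1 stands at −0.64 on the x axis, and ATP5D, NDUFB10, ATP5J, ATP5J2 and NDUFS5 lie low at both times.

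The 5 members with the largest decrease at both times came from complexes V and I. ATP5D, which encodes the delta subunit of the rotating central stalk (chr19:1241746-1244826, plus strand, hg38), had FPKM 23.1, 17.1, 17.4 and 12.9. Its log2 fold change was −0.41 at 24 h (interval of the read ratio −0.57 to −0.30) and −0.40 at 48 h (−0.58 to −0.28). Melatonin was below DMSO by a similar step at each time, and on the FPKM scale 48 h was below 24 h by a similar step with each agent (with DMSO −0.39, but 0.10 under TPM). NDUFB10, an accessory subunit of the membrane arm of complex I (chr16:1959508-1961975, plus strand), had FPKM 33.2, 26.2, 26.9 and 20.1. The log2 fold change of NDUFB10 was −0.33 at 24 h (−0.51 to −0.18) and −0.41 at 48 h (−0.60 to −0.25). On the FPKM scale both genes were highest in DMSO 24 h, but under TPM they were highest in DMSO 48 h (48 h over 24 h with DMSO 0.20 for NDUFB10). Melatonin 48 h was the lowest library on both scales.

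ATP5J, which encodes coupling factor 6 of the peripheral stalk, had FPKM 17.1, 14.2, 17.0 and 12.8, with log2 fold changes of −0.25 and −0.38. On the FPKM scale the 2 DMSO libraries lay close together and above both melatonin libraries. In the GENCODE release 44 annotation 37.3% of the exonic bases of ATP5J are shared with GABPA and JAM2, with strand ignored. How reads there were assigned is not given in the sources used here. ATP5J2, the f subunit in the membrane part of ATP synthase, had FPKM 21.2, 16.8, 23.1 and 19.9 and log2 fold changes of −0.32 and −0.21. NDUFS5 differed by −0.33 and −0.19 from the levels given above. None of these 5 passed 1.5-fold, and all kept their sign at both times under the 10 alternatives run for single genes.

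The 5 members with the largest increase at both times included 3 subunits of complex IV. NDUFB5, an accessory subunit of complex I (chr3:179604690-179627647, plus strand), had FPKM 9.01, 10.9, 7.34 and 9.68. Its log2 fold change was 0.24 at 24 h (0.15 to 0.39) and 0.36 at 48 h (0.28 to 0.52). COX6C had FPKM 13.5, 15.9, 15.6 and 19.4, with log2 fold changes of 0.22 and 0.30. COX5A, which lies on the matrix side of complex IV, had FPKM 45.01, 51.5, 41.6 and 49.9, with changes of 0.19 and 0.25. On the FPKM scale both melatonin libraries of COX5A were above both DMSO libraries, as they were in NDUFB5 and COX5B. COX5B, its neighbour in the complex, had FPKM 62.0, 69.7, 58.7 and 66.1 and a change of 0.17 at each time. COX7A2L, a factor for the assembly of supercomplexes, had FPKM 15.2, 17.0, 17.7 and 20.4 with changes of 0.15 and 0.19. All 5 kept their sign under the same 10 alternatives.

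**Figure D4:**
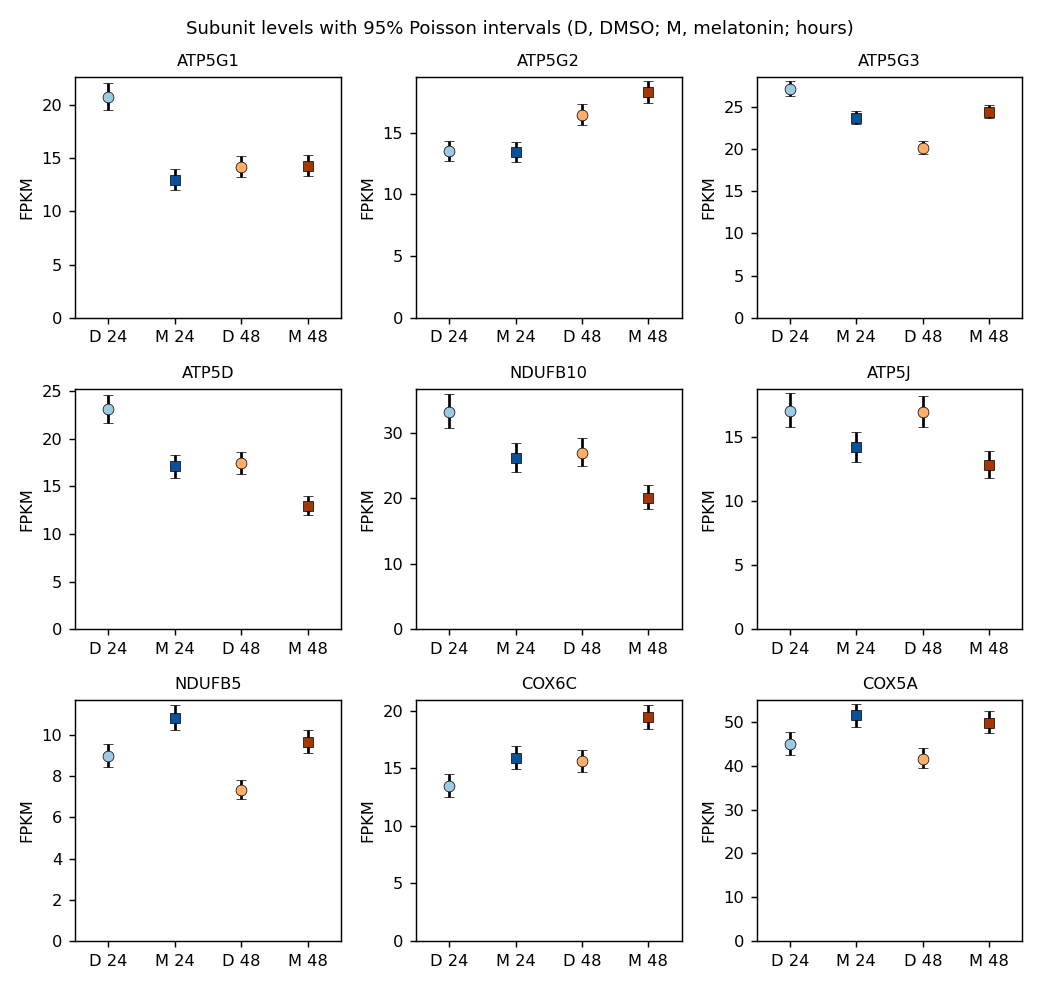
FPKM (y axis from 0) in the 4 libraries for 9 members, with bars for the 95% Poisson interval of the reads, which covers counting error only. ATP5G1 is at 20.8 in DMSO 24 h and 12.97 to 14.3 in the others, ATP5D, NDUFB10 and ATP5J are lower with melatonin at both times, and NDUFB5, COX6C and COX5A are higher.

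Some members of several complexes changed more at 1 time than at the other. The genes described here were picked after their values were seen and are not a list of the largest changes. With melatonin at 48 h, NDUFA8 (0.47), NDUFB3 (0.45), UQCRC1 (0.38) and COX8A (0.35) were also higher. At 24 h UQCRQ was lower (−0.33). UQCRB, which binds coenzyme Q in complex III, had FPKM 6.91, 7.74, 7.97 and 11.2, with log2 fold changes of 0.14 and 0.45. COX7C had FPKM 59.4, 59.2, 63.8 and 77.6, with changes of −0.01 and 0.28. In both genes melatonin 48 h was the highest library by FPKM and by TPM. NDUFC1, a small membrane subunit of complex I, had FPKM 12.1, 8.79, 9.96 and 9.65, with changes of −0.42 and −0.04. NDUFB9, a membrane-arm subunit of the same complex, had FPKM 46.4, 37.8, 36.4 and 36.2, with changes of −0.29 and −0.01. DMSO 24 h was the highest library of both genes by FPKM, but DMSO 48 h was the highest by TPM.

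The c subunit forms the proton-driven ring of ATP synthase and is encoded by 3 genes, ATP5G1, ATP5G2 and ATP5G3, whose proteins differ in the import signal that is cut off. ATP5G1 (ENSG00000159199, chr17:48892765-48895871, plus strand) had FPKM 20.8, 12.97, 14.2 and 14.3, from 998, 688, 813 and 830 reads. On the FPKM scale the DMSO 24 h library stood apart. The log2 fold change with melatonin was −0.64 at 24 h (−0.82 to −0.54) and 0.01 at 48 h (−0.13 to 0.15). Rescaled to TPM the 24 h change was −0.49 and with the plain sum of reads −0.58, both short of 1.5-fold. Under TPM its levels were 43.4, 30.5, 42.0 and 40.8, so that melatonin 24 h was the library that stood apart, and the change over time was −0.05 with DMSO and 0.40 with melatonin. ATP5G2 (ENSG00000135390, chr12:53632726-53677408, minus strand) had FPKM 13.5, 13.4, 16.5 and 18.3, with changes of −0.01 and 0.14. ATP5G3 (ENSG00000154518, chr2:175176258-175184607, minus strand) had FPKM 27.1, 23.7, 20.1 and 24.4, with changes of −0.19 at 24 h and 0.26 at 48 h. By FPKM, ATP5G1 and ATP5G3 were highest in DMSO 24 h and ATP5G2 in melatonin 48 h. By TPM, ATP5G3 was highest in melatonin 48 h as well, and ATP5G1 remained highest in DMSO 24 h.

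The final 77 codons of the 3 c subunit genes, without the stop codon, encode the same protein end. They are shown because a shared protein is here written in different bases, which bears on whether reads of the 3 genes can be told apart. Each line gives the 231 bases 5′ to 3′ from the GENCODE canonical transcript on hg38, and capitals mark the positions at which any of the 3 genes differs.
ATP5G1: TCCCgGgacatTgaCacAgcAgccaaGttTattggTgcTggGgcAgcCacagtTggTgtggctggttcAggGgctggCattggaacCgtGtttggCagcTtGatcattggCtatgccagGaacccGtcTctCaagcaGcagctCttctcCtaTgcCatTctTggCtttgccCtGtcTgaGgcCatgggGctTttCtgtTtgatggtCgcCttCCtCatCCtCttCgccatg
ATP5G2: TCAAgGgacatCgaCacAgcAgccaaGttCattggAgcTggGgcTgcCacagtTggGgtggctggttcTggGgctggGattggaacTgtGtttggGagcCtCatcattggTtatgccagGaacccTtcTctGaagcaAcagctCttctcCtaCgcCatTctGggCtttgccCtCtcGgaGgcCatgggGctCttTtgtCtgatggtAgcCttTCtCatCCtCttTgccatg
ATP5G3: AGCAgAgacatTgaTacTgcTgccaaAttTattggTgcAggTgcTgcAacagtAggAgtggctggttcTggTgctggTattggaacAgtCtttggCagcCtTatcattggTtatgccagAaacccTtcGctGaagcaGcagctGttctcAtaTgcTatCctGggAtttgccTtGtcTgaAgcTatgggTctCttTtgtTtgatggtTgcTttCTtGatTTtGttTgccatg
In all, 57 positions differ in at least 1 gene, and 49 of these are the third base of a codon. ATP5G1 and ATP5G2 are identical at 88.3% of the bases (27 differ), and each is identical to ATP5G3 at 80.1% (46 differ). The coding segments lie at chr17:48895216-48895766, chr12:53665317-53669266 and chr2:175178291-175179175, on the plus, minus and minus strands, and introns interrupt them on the genome.

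The comparisons of 48 h with 24 h share their libraries with the melatonin comparisons, so they are not independent of them. With DMSO, 1 of 75 members rose and 6 fell past 1.5-fold, against 11.2% and 12.6% of all 13854 genes, and 21 of 75 were above 0 against 50.3%. The median of the members was −0.19 against 0.00 for all genes. TPM shifted the median of all genes to 0.46 in this comparison (0.17 for melatonin at 24 h and 0.23 for time with melatonin) and the plain sum of reads to 0.14. TPM also raised the members' median to 0.29, so signs over time depend on the scaling. Relative to all genes the members stayed lower, with 20 of 75 above the median of all genes by FPKM and 25 of 80 by TPM. Complexes I and V were 0.26 and 0.19 below all genes and complex IV 0.08 below. This relation held for complexes I, II, III and V under all 12 alternatives, and complex IV met the median of all genes when no minimum FPKM was set.

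The 6 that fell with time under DMSO were NDUFV1, UQCRQ, NDUFA8, NDUFB6, NDUFB3 and COX8A. NDUFV1, the flavin-bearing subunit that accepts electrons from NADH, had FPKM 28.4, 28.3, 16.2 and 19.9 (log2 fold change −0.77). UQCRQ, a small subunit of complex III, had FPKM 36.6, 29.0, 21.4 and 24.8 (−0.75). NDUFA8, an accessory subunit of complex I, had FPKM 46.5, 45.9, 27.8 and 39.0 (−0.72). In each of these genes the DMSO 48 h library was the lowest of the 4, by TPM as well, and by FPKM melatonin 48 h lay between it and the 24 h libraries. NDUFB3 and COX8A had the same lowest library, with 13.4 and 75.6 FPKM in DMSO 48 h against 18.6 and 96.5 in melatonin 48 h. NDUFB6 differed, with FPKM 18.5, 19.2, 11.1 and 12.1, and it fell with time under DMSO and under melatonin (−0.68 and −0.62). Under TPM, 1 member fell and 15 rose past 1.5-fold with time in DMSO. The shares of all genes past 1.5-fold under TPM are not given, so these counts describe the members alone. On that scale 70 of 80 members were above 0, against 78.3% of all genes. UQCRC1, a core protein of complex III, missed the threshold at FPKM 71.4, 77.4, 47.3 and 61.9 (−0.58). The gene that rose was NDUFA13, an accessory subunit of complex I, at FPKM 1.11, 1.49, 2.29 and 2.05 (0.64) from 55, 82, 136 and 123 reads.

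With melatonin, none of 76 members rose from 24 h to 48 h and NDUFB6 alone fell, against 6.76% and 6.05% of all 13489 genes, and 33 of 76 were above 0 against 45.1%. The median of the members was −0.06 against −0.04 for all genes. Under TPM 7 members rose and none fell past 1.5-fold in this comparison, again without a share of all genes past that threshold. Above 0 were 71 of 78 members, against 73.2% of all genes. By counting intervals, 11 members were higher, 42 lower and 22 undecided over time with DMSO, and 17, 23 and 36 with melatonin. These counts too cover the members only and use the library sizes of FPKM.

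The 18 catalytic or core genes (the electron-carrying subunits of complexes I to III and the F1 and c-ring subunits of ATP synthase) were compared with the 57 accessory ones. Their medians were −0.09 and −0.01 with melatonin at 24 h and 0.04 and 0.08 at 48 h. Over time with DMSO the medians were −0.25 and −0.17, and with melatonin −0.10 and −0.05. In complex I, NDUFS1, which holds iron-sulfur clusters of the peripheral arm, had FPKM 13.8, 12.2, 11.2 and 10.5, and NDUFS8 had 8.47, 8.63, 8.73 and 9.02. NDUFS3, close to the coenzyme Q site, had FPKM 14.01, 12.8, 11.1 and 11.4. NDUFS3 and NDUFS8 thus lay within 0.13 of 0 in both melatonin comparisons. In complex II, SDHB, the iron-sulfur subunit, had FPKM 12.2, 12.7, 10.6 and 12.1. In complex III the Rieske protein gene UQCRFS1 had 15.4, 14.9, 14.3 and 13.8, a change of −0.05 at each time. In complex V the alpha subunit gene ATP5A1 had FPKM 34.3, 31.9, 29.1 and 30.7, beside ATP5B given above. ATP5A1 differed by −0.10 and 0.07 with melatonin and ATP5B by −0.19 and −0.08.

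Several subunits of complex IV exist as pairs of a ubiquitous and a tissue-restricted isoform, and HepG2 used the ubiquitous or liver form in each pair. COX4I1 had 3959 to 5305 reads, whereas COX4I2, the lung form, had 0, 0, 1 and 0. COX6A2, the heart and muscle partner of COX6A1, had 0 reads in every library, against 606 to 881 for COX6A1. With a floor of 3 reads, a count of 0 corresponds to an FPKM of up to 0.302 for COX6A2 in DMSO 24 h, and the upper end of the 95% interval is 0.371. COX7B2 was also at 0 throughout. The muscle form COX7A1 had 10 to 18 reads against 1023 to 1564 for COX7A2. The testis forms COX6B2 and COX8C had 2 to 6 and 0 to 2 reads. NDUFA4L2, a copy of the complex IV subunit gene NDUFA4, had 14 to 25 reads against 1442 to 1755 for NDUFA4. None of these restricted forms reached an FPKM of 1 with melatonin or DMSO, so a switch of isoform was not seen at this depth.

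Some values rest on reads that could belong to another gene. UQCRHL, a near copy of UQCRH, had 83, 67, 95 and 92 reads against 1978, 1938, 2456 and 2267 for UQCRH. Named pseudogenes of SDHA held 623, 588, 1118 and 865 reads beside 4390, 4208, 3602 and 3837 on SDHA, so the reads on SDHA were fewer and those on its copies more at 48 h. In GENCODE, with strand ignored, 51.4% of the exonic bases of NDUFS7, 61.3% of ATP5I and 48.5% of NDUFB8 are shared with other genes. These 3 showed log2 fold changes between −0.05 and 0.01 in both melatonin comparisons. NDUFV2 had 66 to 76 reads, too few for a change below the threshold to be resolved.

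The 13 proteins made from the mitochondrial genome are partners of the same complexes and were set beside the members. Their summed FPKM was 206600, 160489, 88092 and 104303, and that of the nuclear subunits was 2229, 2098, 1896 and 1983. The ratio of the sums was thus 92.7, 76.5, 46.5 and 52.6. Relative to DMSO 24 h, the mitochondrial sum of complex V was 77.4% in melatonin 24 h, 41.0% in DMSO 48 h and 46.6% in melatonin 48 h, whereas the nuclear sum of the same complex was 89.5%, 84.7% and 84.3%. In complex IV the mitochondrial sum was 80.5%, 41.8% and 52.9%, and the nuclear sum 103%, 91.7% and 104%. All 13 mitochondrial genes were below 0 with melatonin at 24 h (median −0.40) and 11 of 13 above it at 48 h (median 0.19). Relative to all genes both directions held under the 12 alternatives, as did the lower level at 48 h with DMSO and with melatonin. The share of reads on the mitochondrial genome was 20%, 16.6%, 9.77% and 11.9%, and its part in the members' FPKM was examined only through the other library sizes.

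**Figure D5:**
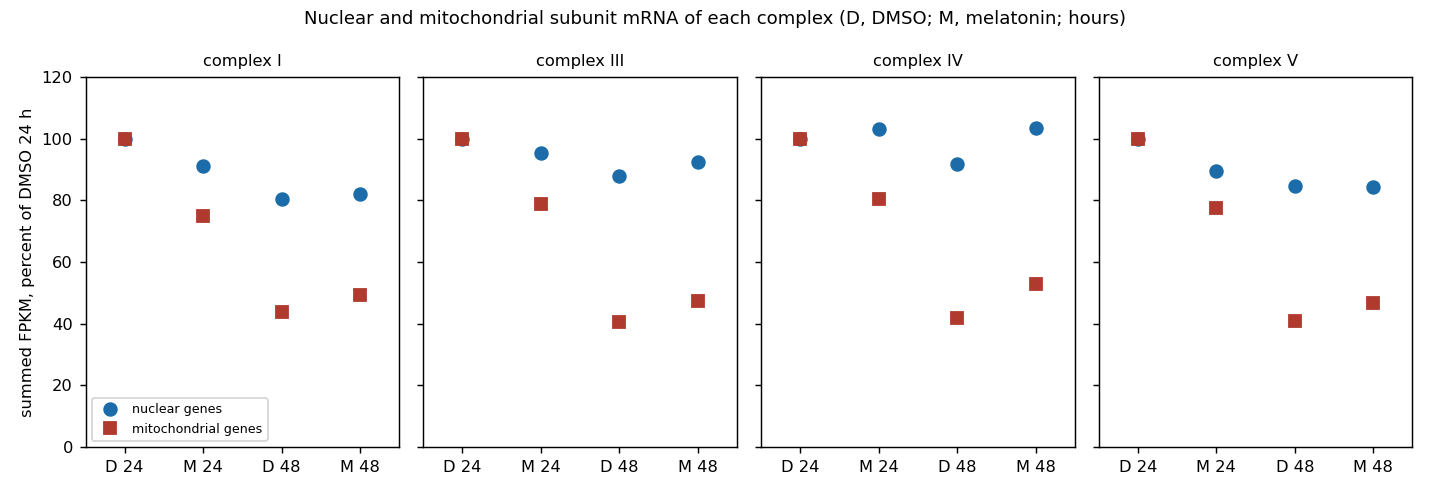
Summed FPKM of the nuclear (circles) and mitochondrial (squares) subunit genes of each mixed complex, as a percentage of the DMSO 24 h library. The mitochondrial sums of DMSO 48 h lie at 40.6% to 43.9% and the nuclear sums at 80.6% to 91.7%, both on the FPKM scale alone.

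Genes that serve the chain without being members were counted in the same way. Of 47 tested assembly factors, 1 rose with melatonin at 24 h (NDUFAF3) and none fell, against 4.02% and 7.53% of all genes, and at 48 h 6 of 48 (12.5%) rose and none fell, against 8.62% and 10.0%. The 6 were ATPAF1, NDUFAF1, NDUFAF3, SDHAF4, SURF1 and UQCC2, whose products help to build complexes V, I, I, II, IV and III. The list medians were 0.07 and 0.01. UQCC2 had FPKM 7.45, 9.04, 4.28 and 9.40 and SURF1 16.4, 21.5, 11.4 and 20.2, so in both genes DMSO 48 h was the lowest library, by TPM as well. Of 14 citric acid cycle enzymes none passed the threshold at 24 h. At 48 h 3 rose (21.4%), IDH2 and OGDH among them, and none fell, against 8.62% and 10.0% of all genes. The list medians were 0.06 and 0.33. Among coenzyme Q genes and other quinone reducers, ETFB fell at 24 h (1 of 17 tested), and COQ4 and COQ5 rose at 48 h (2 of 16, or 12.5%), beside the same shares of all genes as above.

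Mitochondrial ribosomal proteins, which translate the mitochondrial subunits, had medians of 0.04 and 0.05 in the melatonin comparisons and −0.17 and −0.16 over time with DMSO and melatonin. On the FPKM scale their change over time with DMSO was thus near the −0.19 of the members, whereas cytoplasmic ribosomal proteins were at 0.24, and a TPM scale would shift all of these upward. Subunit genes and partners that the naming rule left out (6 genes) had medians of −0.13 and −0.01, among them cytochrome c1 (CYC1) at FPKM 90.3, 81.1, 52.5 and 55.9 and ATPIF1, an inhibitor of ATP synthase, with log2 fold changes of −0.41 and −0.26. Of 14 tested regulators of mitochondrial biogenesis, PPARGC1A alone rose at 24 h (7.14%, against 4.02% of all genes). YY1 alone fell at 48 h (7.14%, against 10.0% of all genes). PPARGC1A, a coactivator of respiratory chain genes, had FPKM 2.41, 5.54, 6.53 and 9.44, lowest in DMSO 24 h and highest in melatonin 48 h. YY1 had FPKM 14.4, 10.8, 16.5 and 10.3, and NRF1 had 4.91, 4.37, 3.45 and 3.47.

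NRF1, GABPA and YY1 are transcription factors known to bind promoters of respiratory chain genes, and their motifs were searched on both strands of the RefSeq promoters on GRCh38.p14 (250 bases before to 50 after the start). A promoter was matched for 67 members, of which 61 reached an FPKM of 1. GCGCATGCG (NRF1) was found in 10 of the 61 (16.4%), against 2.1% of 27305 promoters and 3.99% of the promoters of 8792 expressed coding genes. The relaxed form GCGCANGCG, which includes the first, was found in 31.1%, against 8.05% and 16.0%. CCGGAAG (ETS family, which includes GABPA) was found in 31.1%, against 10.7% and 20.8%, and AAGATGGCG (YY1) in 11.5%, against 1.85% and 4.30%. Each motif was thus listed more often in members than in either background, as a description with no test.

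With melatonin at 48 h the median was 0.06 for the 10 members with GCGCATGCG and 0.07 for the 51 without it, 0.05 and 0.07 for CCGGAAG, and 0.19 (7 genes) and 0.07 (54 genes) for AAGATGGCG. With melatonin at 24 h it was −0.03 with and −0.04 without GCGCATGCG, −0.09 and −0.02 for CCGGAAG, and 0.06 and −0.05 for AAGATGGCG. Over time with DMSO it was −0.05 and −0.19, −0.11 and −0.18, and −0.15 and −0.18 for the same motifs in turn, on the FPKM scale. Promoters of 4 members are shown for these reasons: ATP5J held all motifs and was among the 5 largest decreases, COX5B held CCGGAAG and was among the 5 largest increases, and ATP5G1 and ATP5G2 encode the same mature protein and were highest in different libraries on both scales. Each line is the 150 bases before the RefSeq start, 5′ to 3′ on the strand of the gene, with motif matches in capitals. The deposited gene spans of all 4 begin further upstream than this start.
ATP5G1 (chr17:48892637-48892786, plus strand): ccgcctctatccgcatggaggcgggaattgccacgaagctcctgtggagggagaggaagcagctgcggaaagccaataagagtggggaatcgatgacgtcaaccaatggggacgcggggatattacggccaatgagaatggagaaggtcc
ATP5G2 (chr12:53676084-53676233, minus strand): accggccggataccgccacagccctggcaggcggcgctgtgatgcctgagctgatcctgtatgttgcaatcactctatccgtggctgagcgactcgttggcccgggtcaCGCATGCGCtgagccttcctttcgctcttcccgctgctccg
ATP5J (chr21:25735055-25735204, minus strand): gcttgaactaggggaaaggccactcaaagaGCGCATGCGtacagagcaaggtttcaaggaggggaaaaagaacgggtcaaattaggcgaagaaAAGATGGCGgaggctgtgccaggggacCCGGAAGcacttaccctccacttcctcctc
COX5B (chr2:97645912-97646061, plus strand): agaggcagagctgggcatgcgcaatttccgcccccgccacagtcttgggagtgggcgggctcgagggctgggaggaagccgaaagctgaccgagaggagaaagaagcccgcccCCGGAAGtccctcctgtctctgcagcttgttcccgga
ATP5J carries GCGCATGCG, AAGATGGCG and CCGGAAG in this window, ATP5G2 carries GCGCATGCG on the opposite strand, COX5B carries CCGGAAG, and ATP5G1 has no match.

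The canonical transcripts of the members were short, with a median of 758 bases against 3262 for expressed protein-coding genes, and had a median GC content of 48.5% against 48.6%. Across the members the log2 fold change with melatonin correlated with GC content at Pearson r −0.23 and Spearman rho −0.20 at 24 h (n = 75 genes) and −0.30 and −0.29 at 48 h (n = 76 genes), and across all tested genes Pearson r was −0.03 and −0.05. ATP5D with a GC content of 69.5% and NDUFB10 with 59.0% were lower with melatonin, and NDUFB5 with 39.8% and COX6C with 40.5% were higher. ATP5J with 41.1% was lower as well. The GC content of the canonical transcript and the listed gene length were regressed out over all genes, a step added after the data were seen. After it, 34 of 75 members were above the median of all genes at 24 h (26 without it). With the listed gene length alone regressed out, the number at 24 h was 31 of 75. At 48 h 54 of 76 members were above that median (55 without the step, and 53 with length alone).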

How the data were processed

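HepG2 RNA was sequenced in 4 libraries. The deposited values are FPKM for 58302 genes with their lengths. The authors aligned paired-end reads to hg38 with MapSplice and used Cufflinks, per their methods, whereas the submitters' processing notes list Bowtie2 2.0.6, TopHat2 2.0.9, Cufflinks 2.1.1 and Cuffdiff 2.1.1. Which tools gave the tables, and how the listed lengths were made, is not given in the sources used here. Groups came from the treatment and time labels. Whole reads were recovered from FPKM and length (100% of values, tolerance 0.01). The implied library sizes were 0.849 to 0.973 of the reads on genes, rising from DMSO 24 h to melatonin 48 h, so the authors' FPKM, the plain sum and TPM differ over time. Changes used a pseudocount of 1, a minimum FPKM of 1 and a threshold of 1.5-fold. With 1 library per condition no test was run on conditions. Members and gene lists were chosen with earlier results of these data known. Named genes were those past 1.5-fold with melatonin, the 5 largest increases and decreases by the smaller of the 2 melatonin changes, core genes, isoform pairs, extremes of each complex and genes with near copies. Others, such as those past 1.5-fold over time, were named after their values were seen. Values of some single genes are not reported here. Transcript features came from GENCODE release 44, which holds all 89 members, 31 of them with the same span as deposited. The scripts were tested on simulated data and used Python 3.11, numpy 2.4.6, pandas 2.3.3, scipy 1.17.1 and matplotlib 3.10.9.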

Additional observations from a re-analysis of the deposited data

How the results depend on the processing

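No paired analysis was possible because each condition had 1 library, and no library could be left out. Over the alternatives, the median of the members minus that of all genes ran from −0.09 to −0.02 with melatonin at 24 h, from 0.05 to 0.12 at 48 h, from −0.21 to −0.11 over time with DMSO and from −0.04 to 0.03 over time with melatonin. Counts within 1.5 times the reported one are left out below, except where stated. Rescaled to TPM, 58 of 79 members were above 0 with melatonin at 24 h, against 68.4% of all genes. In that comparison 1 member was lower, which was not ATP5G1 but ATP5L2 with 9 and 1 reads. Over time with DMSO, TPM gave 15 higher, 1 lower and 70 of 80 above 0, against 78.3% of all genes above 0. Over time with melatonin it gave 7 higher, 0 lower and 71 of 78 above 0, against 73.2% of all genes above 0. The TPM change at 48 h was above that at 24 h in 20 of 78 members, against 31.2% of all genes. With the plain sum of reads, 0 were lower with melatonin at 24 h and 42 of 75 above 0 (29 by FPKM, median 0.01 against −0.04). Over time with DMSO the plain sum gave 2 higher, 2 lower and 33 above 0, and over time with melatonin 3, 0 and 52. The shares of all genes above 0 with the plain sum were 61.9%, 62.3% and 60.1% in the same order. With reads outside the mitochondrial genome, 1 was higher and 0 lower over time with melatonin. A pseudocount of 0.1 gave 3 higher over time with DMSO and 1 with melatonin. A minimum FPKM of 5 gave 0 higher over time with DMSO, and no minimum gave 2 lower with melatonin at 24 h. At 2-fold, 0 were lower at 24 h with melatonin, 0 higher and 0 lower over time with DMSO and 0 lower over time with melatonin. With a threshold of a 25% increase in the ratio, 6 were lower with melatonin at 24 h, and 8 were higher and 3 lower at 48 h. Over time with DMSO this threshold gave 4 higher and 18 lower, and over time with melatonin 6 higher and 5 lower. Shares of all genes past a threshold under these alternatives are not given here, so the counts describe the members alone. By construction the plain sum differs from FPKM only in the library sizes, and the threshold settings only in the threshold. The cause of the other differences was not tested. Depth limited NDUFA7, NDUFV2 and NDUFA13, with 15 to 136 reads. Of the 11 single genes followed, signs changed in 0 of 110 checks with melatonin at 24 h, 1 of 110 at 48 h (ATP5G1, from 0.01 to −0.04 under TPM), and 10 and 7 of 110 over time.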
